A study of Mus musculus with 4 samples.

Results

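Treg cells of the neonatal liver were compared with Treg cells of the neonatal spleen by single-cell RNA sequencing, with 1 library from each tissue of 12-day-old mice. The cells compared were chosen by reads and not by cluster: a barcode was kept with at least 500 detected genes, at most 10% of its unique molecular identifiers (UMIs, each a counted RNA molecule) from mitochondrial genes, at least 1 Foxp3 UMI, and fewer than 8 UMIs summed over 9 genes of mitosis (Ccnb1, Ccnb2, Cdc20, Cenpf, Ube2c, Tpx2, Birc5, Top2a and Mki67). This left 7681 of the 15775 neonatal barcodes and of the 24546 barcodes of the series: 3642 of 8055 from the liver and 4039 of 7720 from the spleen. The mice were C57BL/6 animals with a Foxp3GFP tag, and those of 12 days are described as Foxp3GFP-Cre Rosa26loxP-Stop-loxP-YFP: the Foxp3 gene drives green fluorescent protein and Cre recombinase, and Cre switches on a yellow reporter. CD4+ cells were enriched on magnetic beads and CD4+ Foxp3GFP+ cells were sorted. The 7-week liver and spleen libraries, from mice whose reporter genotype is not stated and whose stage is labelled aged, gave 1414 and 3782 cells by the same rule and are used here as a second reading of the same ratio. The sources used here do not state how many mice gave a library, so no value has a replicate and no difference is tested. Every interval is an exact 95% interval of counting error alone.

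Treg cells are CD4+ T cells that hold back other immune cells, and the transcription factor Foxp3 fixes their identity. Resting Treg cells recirculate through lymphoid organs with the help of homing receptors such as the chemokine receptor Ccr7. After stimulation they can lose such receptors, take up receptors for inflamed or non-lymphoid tissue, and make suppressive cytokines and, in some cells, granzymes. In the young mouse the liver and the spleen are also sites of blood cell formation.

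The chosen cells held 19406950 UMIs in liver and 22114567 in spleen. Their depth was alike, with a median of 4657 UMIs and 1822 genes per cell in liver against 4825 UMIs and 1834 genes in spleen, and a median mitochondrial share of 1.98% against 1.68%. Foxp3 itself, used to choose the cells, stood at 586 and 561 UMIs per 1000000 (CPM). The limit on mitosis UMIs took out 515 liver cells (12.4% of those with a Foxp3 UMI) and 256 spleen cells (5.96%). Just inside that limit, at 6 or 7 UMIs, were 46 liver and 28 spleen cells, and just outside, at 8 or 9, were 29 and 26. Exactly 1 Foxp3 UMI was held by 29.5% of liver and 30.8% of spleen cells. The libraries shared 17 barcodes among the chosen cells.

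The sorted identity was present in both tissues and RNA of other lineages was low, with exceptions on both sides. The T cell receptor gene Cd3e stood at 1560.3 CPM in liver and 1373 in spleen, Cd4 at 147 and 146, Ikzf2, which encodes the Treg factor Helios, at 533 and 448, and Il2ra, the alpha chain of the IL-2 receptor, at 148 and 206. Of the 4 natural killer cell markers examined, Ncr1 and Klrb1b had no UMI in either library, Klrb1c had 2 UMIs in liver and none in spleen, and Eomes had 4 and 28. CD8 T cell markers summed to 10.7 against 19.8 CPM, most of it Cd8b1 (10.0 against 17.3). Gamma-delta T cell markers summed to 10.4 against 6.65 CPM, with Trdv4 at 6.90 against 1.58 and Tcrg-C1 at 0.721 against 3.12. In spleen the exception was haemoglobin RNA. Hbb-bs stood at 1.24 CPM in liver and 270 in spleen, and the 5 erythroid markers summed to 2.63 against 397 CPM. In liver the exceptions were B cell genes, with Cd79a at 14.4 against 2.13 CPM and Ms4a1 at 3.09 against 0.317, while Cd79b stood at 40.8 against 36.5. The 8 macrophage and monocyte markers summed to 11.9 against 25 CPM, though Cd68 (7.94 against 3.66) and Clec4f (0.309 against 0) were higher in liver. The 6 hepatocyte markers summed to 13.5 against 6.01 CPM. Alb stood at 2.94 CPM in liver and at 0 in spleen, while Afp alone of the list was higher in spleen (3.09 against 3.57). The part of such RNA in the ratios was not tested.

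Most genes stood at the same level in both tissues. Over the 7478 genes with at least 10 CPM in either library, the median log2 ratio of liver over spleen was -0.00, which the scaling to a common total largely sets, and 72.8% lay within 1.25-fold. A floor of 25 CPM, reached in at least 1 of the libraries, left 4940 genes. Of these, 107 had a ratio of 2 or more (2.17%) and 47 a ratio of 0.5 or less (0.951%), called higher and lower in liver from here on. At the floor of 10 CPM used for the gene lists below, these numbers were 190 (2.54%) and 93 (1.24%) of 7478. Of the 107, 105 were named protein-coding or RNA genes and 2 carried clone names, while the 47 included 3 haemoglobin genes and 1 T cell receptor segment. Foxp3 and mitosis UMIs chose the cells, and the comparison was proposed with these ratios known, so all of them are a description of these 2 libraries.

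**Figure D1:**
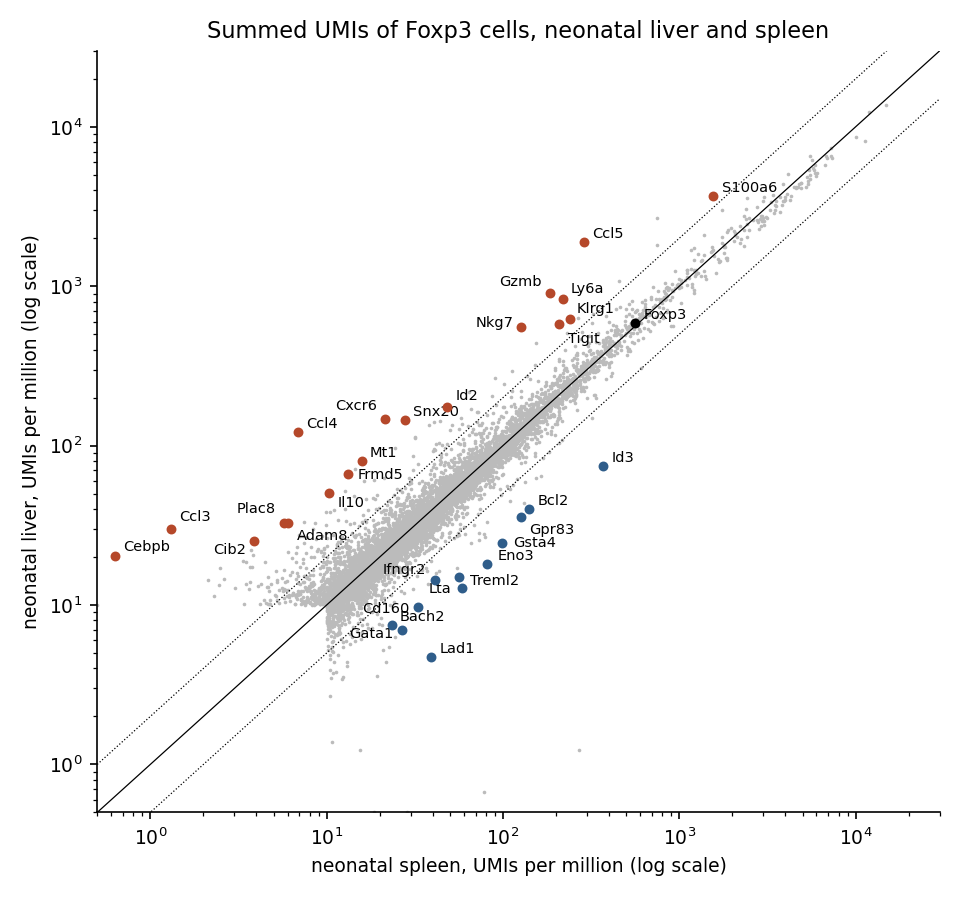
Level of each gene in neonatal spleen (x axis) and neonatal liver (y axis), in UMIs per 1000000 over the chosen Foxp3 cells on log axes, for the 7478 genes with at least 10 CPM in either library (grey). The solid line marks equal levels and the dotted lines 2-fold differences. Labelled genes are red at 2-fold or more higher in liver, blue at 2-fold or more lower, black otherwise. Foxp3 lies on the line, Ccl5 and Gzmb stand far above it and Id3 far below it.

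The chemokine genes Ccl3 and Ccl4 had the highest ratios among genes with at least 25 CPM in either library. Ccl5, a ligand that draws T cells and monocytes, stood at 1886 CPM in liver and 287 in spleen, 6.56-fold higher (interval 6.39 to 6.74). Ccl3 (GRCm38 chromosome 11, 83647844 to 83649355) stood at 29.9 against 1.31 CPM, 22.8-fold higher (15.7 to 34.3), and Ccl4, its neighbour (chromosome 11, 83662584 to 83664683), at 122 against 6.87 CPM, 17.7-fold higher (15 to 21). All 3 genes were high in the liver library, and Ccl5 was spread over far more cells than the other pair. With every cell thinned to 2000 UMIs, a Ccl5 UMI was found in 43.7% of 3315 liver cells and 12.5% of 3724 spleen cells, with 9.50 and 4.90 UMIs per cell that held one. Ccl3 was found in 97 liver and 3 spleen cells and Ccl4 in 89 and 15. The 10 highest cells held 67.8% of the Ccl4 UMIs of liver and 88.8% of those of spleen, and all Ccl3 UMIs of spleen lay in at most 10 cells. Leaving out the 10 cells richest in Ccl4 from both libraries, its log2 ratio moved from 4.15 to 5.67, and Ccl3 had no spleen UMI left. In liver, 30 of the 97 Ccl3 cells also held Ccl4, against 1.83% of cells without Ccl3.

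Of 37 chemokine and cytokine ligand genes, 19 reached 10 CPM, 6 of these had a ratio of 2 or more and 4 a ratio of 0.5 or less, and their median log2 ratio was 0.33. Il10, the suppressive cytokine, stood at 50.6 against 10.3 CPM (4.91-fold), Ifng, the gene of interferon gamma, at 22 against 3.71 CPM (5.93-fold), and Csf1, a growth factor of macrophages, at 28.2 against 9.95 CPM (2.83-fold). The 4 lower genes all belong to the tumour necrosis factor family. Lta, which encodes lymphotoxin alpha, stood at 12.7 against 58.5 CPM (4.59-fold lower, 4.01 to 5.29), Tnf at 13.6 against 37.4, Tnfsf11, the gene of RANKL, at 15.9 against 41.5, and Tnfsf8 at 3.50 against 10.5. Ltb, a further member of that family, stood at 1219 against 1238 CPM, and Tgfb1 at 197 against 191. The list thus held genes at both ends, with the chemokines, Il10 and Ifng on the liver side.

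Cytotoxic granule genes followed the chemokines. Gzmb, which encodes the protease granzyme B, stood at 912 CPM in liver and 184 in spleen (4.95-fold, 4.78 to 5.12). Nkg7, a granule membrane gene, stood at 551 against 127 CPM (4.33-fold), Prf1, the gene of the pore-forming perforin, at 13.6 against 3.48 (3.91-fold), and Klrg1, a lectin-like receptor of stimulated T cells, at 619 against 241 (2.57-fold). These were the 4 of 9 measured members past 2-fold, none was 2-fold lower, and the median log2 ratio of the list was 0.68. More cells held these genes in liver. A Gzmb UMI was found in 36.5% of thinned liver cells (34.9 to 38.2) and 8.38% of spleen cells (7.51 to 9.31), with 4.94 and 3.89 UMIs per positive cell; without thinning the shares were 44.5% and 11.4%. Barcodes with 3 or more B cell or macrophage UMIs and no CD3 UMI, 15 in liver and 12 in spleen with medians of 3158 and 1851.5 UMIs, held Gzmb in 0 and 1 and Ccl5 in 0 and 1. Of the liver cells with Gzmb, 68.8% also held Ccl5 and 57.9% Nkg7, against 29.2% and 22% of the cells without Gzmb. In spleen the same shares were 47.4% and 42.0% against 9.26% and 9.17%.

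**Figure D2:**
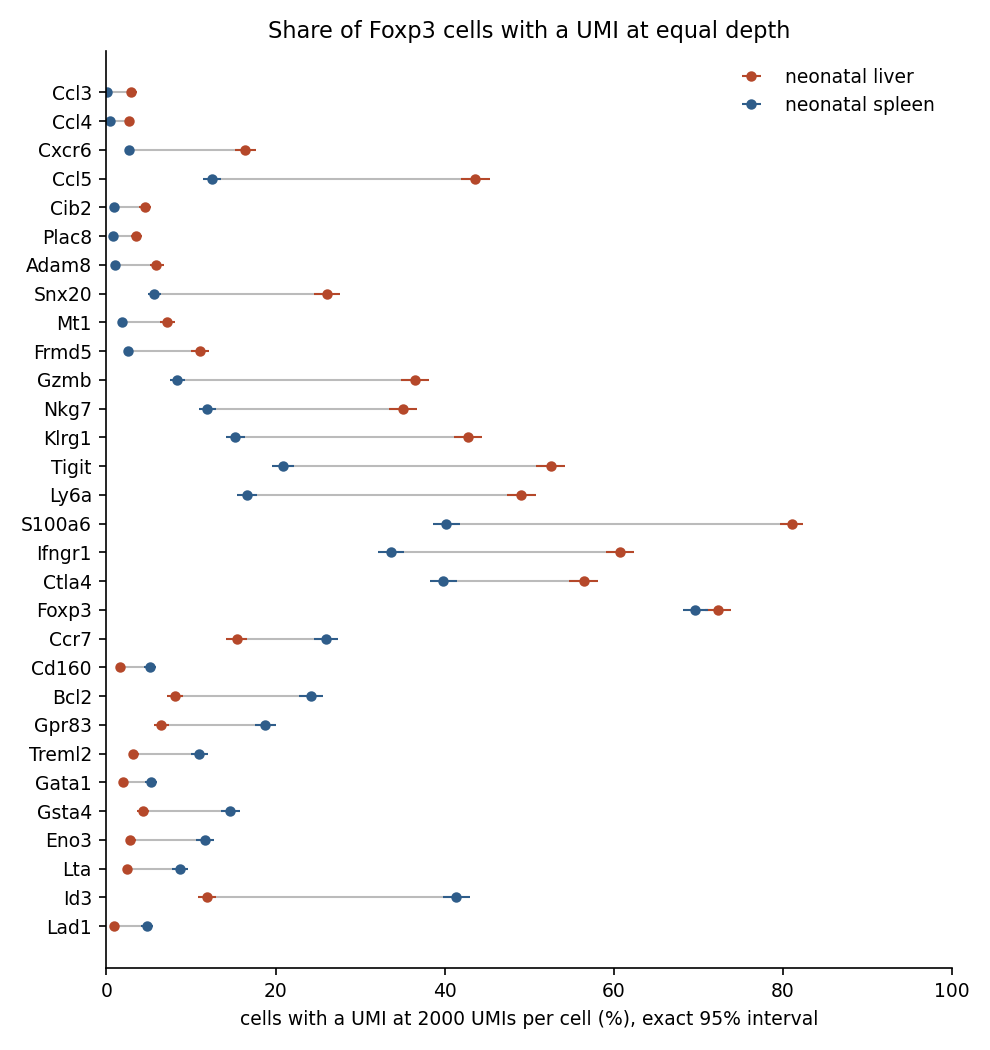
Share of Foxp3 cells with at least 1 UMI of each gene (x axis, percent) after every cell was thinned to 2000 UMIs, in 3315 neonatal liver cells (red) and 3724 neonatal spleen cells (blue), with exact 95% intervals for counting error. Ccl5, Gzmb, Nkg7, Klrg1, Tigit, Ly6a and S100a6 were held by many more liver cells, Id3, Bcl2, Gpr83 and Ccr7 by more spleen cells, and Foxp3 by 72.4% and 69.7%.

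Chemokine receptor genes lay on both sides. Cxcr6, a receptor found on lymphocytes that stay in liver sinusoids, stood at 148 against 21.4 CPM (6.89-fold, 6.25 to 7.61). Ccr2, the receptor of Ccl2, stood at 114 against 31.7 (3.60-fold), Ccr3 at 30.1 against 8.41 (3.58-fold), Cxcr3 at 295 against 113 (2.61-fold) and Gpr55 at 12.8 against 5.56 (2.31-fold). All of these were past 2-fold upward. Gpr18 (13.7 against 41.6 CPM) and Cxcr5, the receptor for B cell follicles (7.16 against 17.1), were past 2-fold downward. S1pr1, which lets cells leave lymphoid organs, stood at 116 against 198 CPM and Ccr7 at 154 against 195, both short of 2-fold. So were Ccr6 (11.1 against 21.1 CPM) and Ccr4 (47.9 against 43.3 CPM). Among adhesion genes 3 of 19 measured were past 2-fold, all upward: Epcam (142 against 44.0 CPM, 3.24-fold), Alcam (3.13-fold) and Icam1 (2.45-fold). The integrins measured at 10 CPM, from Itgae (1.78-fold higher) to Itga6 (39.8 against 47.6 CPM), stayed within 2-fold.

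At the same floor of 25 CPM, the other genes among the 10 highest were Cib2, Plac8, Adam8, Snx20, Mt1 and Frmd5. Cib2, a calcium-binding protein gene, stood at 25.2 against 3.89 CPM (6.48-fold), and Adam8, a membrane metalloprotease gene, at 32.8 against 6.06 (5.41-fold). Their exons overlap those of Sh2d7 and Gm16201 on the other strand. Snx20, a sorting nexin that binds the selectin ligand PSGL-1, stood at 145 against 27.7 CPM (5.23-fold) and Frmd5 at 65.9 against 13.2 (5.01-fold). Plac8 stood at 32.6 against 5.74 CPM (5.68-fold). It is also a B cell gene, and 13 of the 15 liver barcodes with B cell or macrophage RNA held it. The B cell genes Cd79a and Ms4a1 were on the same side, and their part in the ratio of Plac8 was not tested. The last gene inside the 10 highest was Frmd5 and the first outside was Gzmb at 4.95-fold. Among the 10 lowest, Cd160 was the last inside and Atp1b1, with a ratio of 0.310, the first outside.

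Mt1 and Mt2 encode metallothioneins, small proteins that bind zinc and copper and whose genes respond to metal through the factor Mtf1. They lie side by side on chromosome 8 (Mt2 at 94172664 to 94173568, Mt1 at 94179082 to 94180327). Mt1 stood at 80.0 against 15.8 CPM (5.06-fold, 4.50 to 5.69) and Mt2 at 11.3 against 2.31 (4.92-fold, 3.61 to 6.80). A Mt1 UMI was held by 7.21% of thinned liver cells and 1.80% of spleen cells. They were the only 2 of 14 measured iron, haem and redox genes past 2-fold, and the median of that list was -0.04. The ferritin genes Fth1 (1444 against 1326 CPM) and Ftl1 (940.3 against 1206 CPM) and the haem oxygenase gene Hmox1 (8.97 against 12.8) did not share the ratio. Without barcodes that held RNA of other lineages, the log2 ratio of Hmox1 turned from -0.51 to 0.19. The 250 bases before the RefSeq start of each metallothionein gene (GRCm38.p6, chr8:94178839-94179088 and chr8:94172368-94172617, both on the plus strand) are shown because the neighbours had nearly the same ratio; capitals mark matches to the metal response core TGCACNC or TGCGCNC on either strand, 1 for Mt1 and 3 for Mt2.
Mt1: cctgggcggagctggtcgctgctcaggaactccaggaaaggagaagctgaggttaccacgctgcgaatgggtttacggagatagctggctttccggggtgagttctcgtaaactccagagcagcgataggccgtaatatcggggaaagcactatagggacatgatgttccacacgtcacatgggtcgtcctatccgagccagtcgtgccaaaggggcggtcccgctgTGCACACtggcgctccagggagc
Mt2: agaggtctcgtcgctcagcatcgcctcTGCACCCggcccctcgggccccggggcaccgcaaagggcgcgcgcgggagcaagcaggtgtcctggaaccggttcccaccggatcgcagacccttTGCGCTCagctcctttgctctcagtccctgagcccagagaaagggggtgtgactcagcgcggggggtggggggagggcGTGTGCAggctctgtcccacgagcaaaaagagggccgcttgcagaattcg
That core, chosen after the ratios were seen, occurs in 21.4% of 32851 windows of this length, so a match is a description of the sequence and no more. The numbers of matches hold for these windows alone. Bases beyond them were not searched, so they are not the number of such cores in either promoter.

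Some windows of the leading genes held a motif that was searched. RefSeq windows were matched for 7 of the 10 highest and 8 of the 10 lowest genes. None of the 15 held TGANTCA, the core that AP-1 and Bach factors bind, which occurs in 6.75% of all windows. The T-box type core AGGTGTGA (1.12% of all windows) was in that of Plac8, the STAT type core TTCNNNGAA (7.02%) in those of Lta and Cd160, and the E-box cores CAGCTG or CAGGTG (27.7%, chosen after the ratios were seen) in those of Plac8, Lta, Gpr83 and Cd160. Each motif was searched on both strands. For reference, the 2 highest and 2 lowest matched genes, none with a match, are shown: Ccl3 (chr11:83649379-83649628, minus strand), Cxcr6 (chr9:123806227-123806476, plus), Lad1 (chr1:135818348-135818597, plus) and Id3 (chr4:136143572-136143821, plus).
Ccl3: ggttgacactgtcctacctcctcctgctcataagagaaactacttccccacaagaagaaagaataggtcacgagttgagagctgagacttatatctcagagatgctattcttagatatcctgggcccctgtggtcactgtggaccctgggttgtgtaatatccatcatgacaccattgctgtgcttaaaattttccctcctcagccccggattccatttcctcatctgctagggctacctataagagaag
Cxcr6: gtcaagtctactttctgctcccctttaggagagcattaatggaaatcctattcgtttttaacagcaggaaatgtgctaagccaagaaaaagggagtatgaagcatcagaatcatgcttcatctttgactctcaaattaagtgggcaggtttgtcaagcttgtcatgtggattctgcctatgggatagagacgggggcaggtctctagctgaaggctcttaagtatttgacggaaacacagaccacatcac
Lad1: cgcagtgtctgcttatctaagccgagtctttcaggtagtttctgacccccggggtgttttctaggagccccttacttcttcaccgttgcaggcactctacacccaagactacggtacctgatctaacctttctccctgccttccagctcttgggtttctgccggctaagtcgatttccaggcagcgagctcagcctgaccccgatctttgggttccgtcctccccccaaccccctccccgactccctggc
Id3: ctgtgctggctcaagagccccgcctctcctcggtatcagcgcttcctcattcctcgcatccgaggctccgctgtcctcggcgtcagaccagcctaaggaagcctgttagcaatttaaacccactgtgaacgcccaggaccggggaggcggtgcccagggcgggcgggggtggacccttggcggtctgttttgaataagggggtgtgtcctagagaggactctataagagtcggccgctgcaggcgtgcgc
No match says only that these letters are not in the window shown.

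Transcription factors of effector T cells lay mostly on the liver side. Of 22 measured, 20 had a ratio above 1, 7 reached 2-fold upward, none 2-fold downward, and the median log2 ratio was 0.86. Id2, an inhibitor of E proteins, stood at 175 against 48.2 CPM (3.64-fold), Tbx21, the gene of T-bet, at 39.3 against 10.9 (3.59-fold), Runx2 at 26.5 against 7.73 (3.43-fold), Pparg at 14.9 against 4.66 (3.21-fold), Prdm1, the gene of Blimp-1, at 27.3 against 9.45 (2.88-fold), and Rbpj, the Notch effector, at 33.8 against 12.9 (2.61-fold). Cebpb had the largest ratio of the list, 20.4 against 0.633 CPM (32.2-fold, 19.0 to 59.5). It rested on 14 spleen UMIs in 14 cells, so the 71.4% held by 10 of those cells shows no concentration. After thinning, 3.80% of liver cells and 0.161% of spleen cells held a Cebpb UMI. Leaving out the 10 richest cells from both libraries, its log2 ratio moved from 5.01 to 6.72. The loss of 71.4% of the spleen UMIs largely sets that move. Its exons overlap those of Tmem189 on the other strand. Irf4 (6.90 against 11.8 CPM) and Xbp1 (67.7 against 77.8) were the 2 members below 1, both short of 2-fold.

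Factors of resting T cells ran the other way. Of 16 measured, none reached 2-fold upward and 5 reached 2-fold downward, with a median log2 ratio of -0.47. Id3, which restrains E proteins, stood at 74.0 against 369 CPM (4.98-fold lower, 4.71 to 5.27). Bach2, a repressor that holds T cells in a resting state, stood at 7.52 against 23.4 CPM (3.11-fold lower), Sox4 at 6.08 against 15.7 (2.58-fold lower), Myb at 4.38 against 11 (2.51-fold lower), and Tcf7, the gene of TCF-1, at 53.4 against 109. The relation was not general, since Foxo1 (138 against 131 CPM), Ets1 (396 against 378) and Klf3 (161 against 146) were level. An Id3 UMI was found in 11.9% of thinned liver cells and 41.4% of spleen cells (20.3% and 59.4% without thinning). Id2 and Id3 were also counted in the same cells. In liver 4.21% of Id2 cells held Id3 against 13.9% of cells without Id2, and in spleen 25.4% against 42.7%. Likewise 3.31% of liver and 12.2% of spleen cells with Gzmb held Id3, against 16.8% and 44.1% of those without.

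**Figure D3:**
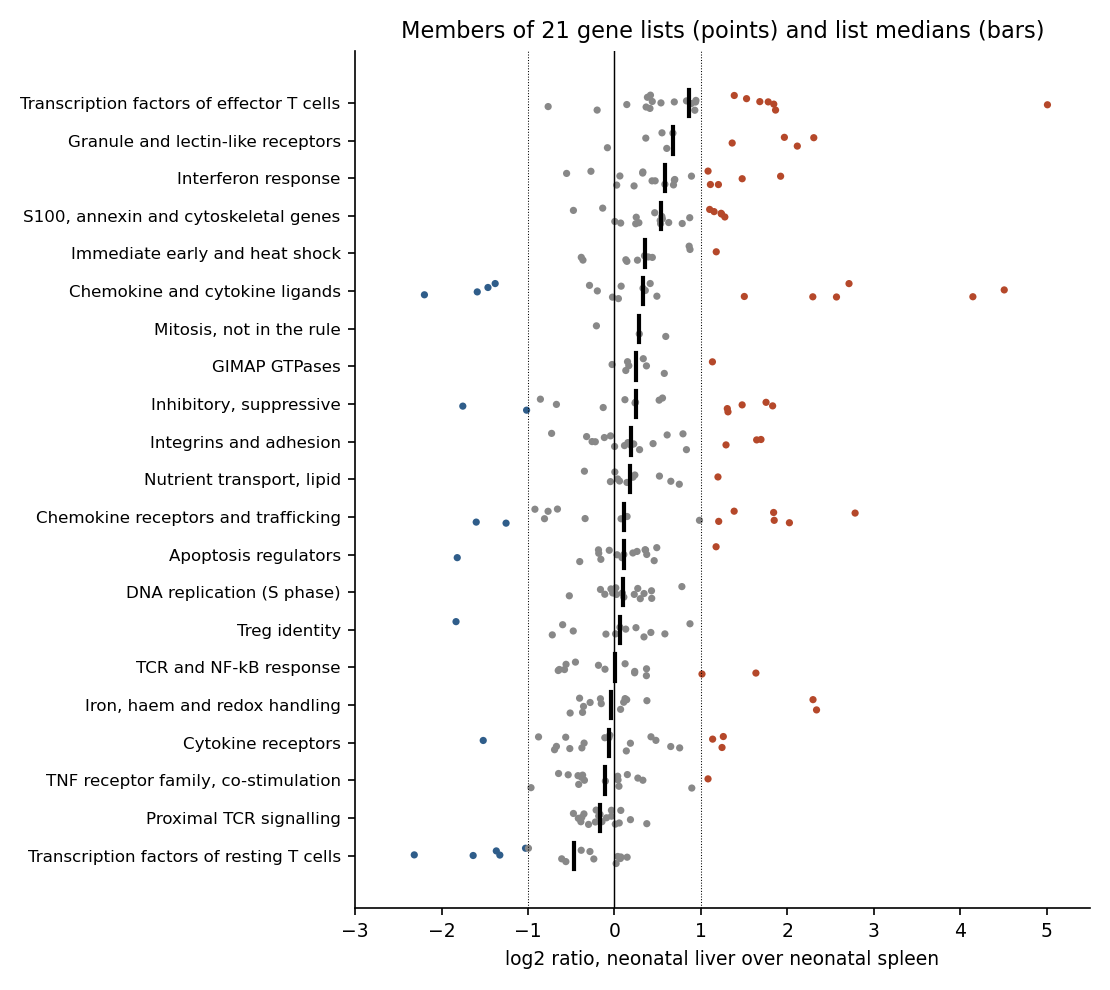
Log2 ratio of neonatal liver over neonatal spleen (x axis) for each measured member (points) of the 21 gene lists, with the list median as a black bar. Dotted lines mark 2-fold, red points lie at or above it and blue points at or below it; vertical scatter within a row has no meaning. Transcription factors of effector T cells have the highest median (0.86) and those of resting T cells the lowest (-0.47).

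The genes lowest in liver had mixed functions. Lad1, which encodes the basement membrane anchor ladinin, had the lowest ratio after the haemoglobin genes, at 4.74 against 39.1 CPM (8.25-fold lower, 6.65 to 10.3). Eno3, the muscle form of enolase, stood at 18 against 81.6 CPM (4.54-fold lower), Gsta4, a glutathione transferase gene, at 24.6 against 99.3 (4.03-fold lower), Treml2 at 15 against 56.6 (3.76-fold lower), and Cd160, an inhibitory and co-stimulatory receptor gene, at 9.79 against 33.1 (3.38-fold lower). Gpr83, a receptor gene enriched in Treg cells, stood at 35.5 against 126 CPM (3.57-fold lower). Bcl2, which protects cells from apoptosis, stood at 40.0 against 141 CPM (3.53-fold lower, 3.26 to 3.82), and a Bcl2 UMI was held by 8.05% of thinned liver and 24.2% of spleen cells. Exons of D630008O14Rik overlap Bcl2, and those of Pdzk1 overlap Cd160, on the other strand.

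Gata1, the master factor of red cell formation, was among the lowest as well, at 6.96 against 26.6 CPM (3.83-fold lower, 3.17 to 4.65). Haemoglobin RNA was also lower in liver, and its part in the Gata1 ratio was not tested. Within spleen, a Gata1 UMI was held by 12.2% of the 3804 cells without any erythroid marker UMI (11.2 to 13.3) and by 7.66% of the 235 cells with one (4.60 to 11.8).

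Apoptosis regulators other than Bcl2 showed a reciprocal member. Mcl1, a pro-survival gene of the same family, stood at 128 CPM in liver and 56.5 in spleen (2.26-fold higher), while Bcl2l1 (49.9 against 47.0) and the pro-death genes Bax (224 against 234) and Bcl2l11 (26.0 against 29.5) were level. Of the 17 measured, only Mcl1 and Bcl2 were past 2-fold and the list's median log2 ratio was 0.11.

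The Treg identity genes divided. Of 13 measured, none was 2-fold higher and Gpr83 alone was 2-fold lower, with a median log2 ratio of 0.06. The list includes Foxp3 and Cd4, by which the cells were chosen or sorted, and the median is the ratio of Foxp3 itself. Ctla4, the checkpoint receptor through which Treg cells strip co-stimulation, stood at 587 against 321 CPM (1.83-fold higher) and Capg at 812 against 542, while Izumo1r, the gene of folate receptor 4, stood at 560 against 922 (1.65-fold lower) and Ikzf4 at 31.7 against 48.1. Inhibitory receptors and suppressive mediators had 5 of 15 measured members past 2-fold upward and 2 downward (median 0.24). Fgl2, a secreted suppressor, stood at 135 against 38.0 CPM (3.56-fold), Lgals3, the gene of galectin-3, at 216 against 64.2 (3.37-fold), Tigit at 581 against 209 (2.78-fold), Lag3 at 125 against 50.2 and Entpd1, the ATP-hydrolysing enzyme CD39, at 46.3 against 18.7. Tigit was held by 52.6% of thinned liver and 20.8% of spleen cells. Cd160 and Cd200 were the 2 lower members, and Pdcd1, the gene of PD-1, was level (82.7 against 76.1 CPM).

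In some cytokine receptors the chains differed. Ifngr1, the ligand-binding chain of the interferon gamma receptor, stood at 629 against 266 CPM (2.37-fold higher, 2.30 to 2.44), and its partner chain Ifngr2 at 14.3 against 41.1 (2.87-fold lower, 2.5 to 3.29). Il10ra stood at 104 against 43.6 CPM (2.39-fold higher) and Il10rb at 103 against 90.8. The IL-2 receptor chains Il2ra (log2 ratio -0.48) and Il2rb (0.75) lay on opposite sides, both short of 2-fold. Some pairs lay on 1 side, such as Il6ra (77.9 against 126 CPM) and Il6st (26.9 against 49.5) of the IL-6 receptor, both short of 2-fold. Il1rl1, the IL-33 receptor gene, stood at 15.2 against 6.92 CPM (2.20-fold higher). Ifngr1, Ifngr2, Il10ra and Il1rl1 were the 4 of 20 measured cytokine receptor genes past 2-fold, and the median log2 ratio was -0.06. In the list of TNF receptors and co-stimulatory receptors only Icos, at 322 against 152 CPM (2.12-fold), was past 2-fold of 17 measured (median -0.11), and Tnfrsf25 stood at 37.1 against 72.5 CPM.

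Interferon response genes were mostly on the liver side. Of 19 measured, 17 had a ratio above 1 and 5 were at least 2-fold higher (median 0.58). Ly6a, the gene of Sca-1, stood at 827 against 218 CPM (3.79-fold), the interferon-induced GTPases Iigp1 at 21.3 against 7.64 (2.78-fold), Gbp7 at 163 against 70.9 (2.30-fold), Gbp5 at 24.9 against 11.5 (2.16-fold) and Gbp2 at 102 against 48.2. Isg15 (89.7 against 66.3 CPM) and Irf7 (55.2 against 44.0) were less far apart. S100, annexin and cytoskeletal genes had 18 of 20 above 1 and 5 at least 2-fold higher (median 0.54): S100a11 (1802 against 744 CPM), S100a6 (3674 against 1557), S100a4 (1075 against 457), Myadm and Lmna. S100a6 was held by 81.1% of thinned liver cells and 40.2% of spleen cells. In the GIMAP family, small GTPases of lymphocyte survival, Gimap7 stood at 507 against 231 CPM (2.19-fold) and the other 7 members were within 2-fold (median 0.25).

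The list of proximal antigen receptor signalling held no gene past 2-fold among 19 measured. Of these, 14 lay below 1 (median -0.17), from Dgkz at 49.9 against 69.4 CPM to Ptpn22 at 71.8 against 55.4. Among 14 genes that respond to T cell receptor and NF-kB signals the median was 0.01. Nr4a2 (19.7 against 6.33 CPM, 3.11-fold) and Tnfaip3 (52.5 against 26.0, 2.02-fold) were past 2-fold, whereas Nr4a1 stood at 96.2 against 132 CPM and Egr1 at 62.9 against 94.0. The immediate early and heat shock list had 11 measured genes, and its heat shock members Hspa1a and Hspa1b did not reach 10 CPM. Of the 11, Dusp1, a phosphatase gene, was past 2-fold (163 against 72.3 CPM), Fos stood at 161 against 88.2, and the median was 0.35. Nutrient and lipid genes had a median of 0.18, with Plin2, a lipid droplet coat gene, at 92.0 against 40.1 CPM (2.29-fold) the only 1 of 12 past 2-fold.

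After the limit on mitosis UMIs, none of 16 S phase genes was past 2-fold (median 0.10), with Rrm2 at 22.8 against 13.3 CPM and Pcna at 67.6 against 68.6. Only 3 of 15 mitosis genes not used in the choice reached 10 CPM, with Cenpa at 75 against 49.7 and Tubb4b at 141 against 163 (median 0.29). With no limit on mitosis UMIs the log2 ratio of Tubb4b turned from -0.21 to 0.49. A residue of the genes used in the choice was left: 5.0% of liver and 2.87% of spleen cells still held 3 to 7 of their UMIs, and Ube2c, at 25.2 against 12.1 CPM, is 1 of the 107 genes. Ccnb2 (10.8 against 5.20 CPM) and Birc5 (10 against 4.79 CPM), below that floor, were past 2-fold upward as well. With fewer than 3 such UMIs allowed, the median of the 3 mitosis genes was -0.08, and 105 of the 107 and 41 of the 47 genes kept their place. With no limit on them, 86 of the 107 and 43 of the 47 did, among 122 higher and 53 lower genes.

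The 7-week libraries gave a reading of the same ratio in cells that played no part in the choice of these genes. There 85 of 5046 genes reached a ratio of 2 (1.68%) and 27 a ratio of 0.5 or less (0.535%). Of the 107 genes higher at 12 days, 25 were among the 85 (23.4% of the first and 29.4% of the second), and of the 47 lower, 10 were among the 27 (21.3% and 37.0%). Of the genes with at least 25 CPM at 7 weeks, 69 of 75 lay on the same side of 1 as at 12 days for the higher group and 35 of 38 for the lower. At 12 days 49.6% of the 7478 genes with at least 10 CPM had a ratio above 1. The share of all genes that kept their side at 7 weeks is not given here. The shared higher genes included Ccl5 (259 against 121 CPM, 2.15-fold), Gzmb (71.3 against 22.4, 3.18-fold), Ccr2 (145 against 35.9, 4.04-fold), Fgl2, Lgals3, Id2, Prdm1, S100a4 and S100a6, and the shared lower genes included Id3 (92.0 against 257), Gpr83 (48.7 against 99.6), Eno3, Gsta4 and Tnfsf11. Differences between the ages were not tested, and the 7-week cells were shallower, with medians of 2889 and 3117 UMIs.

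**Figure D4:**
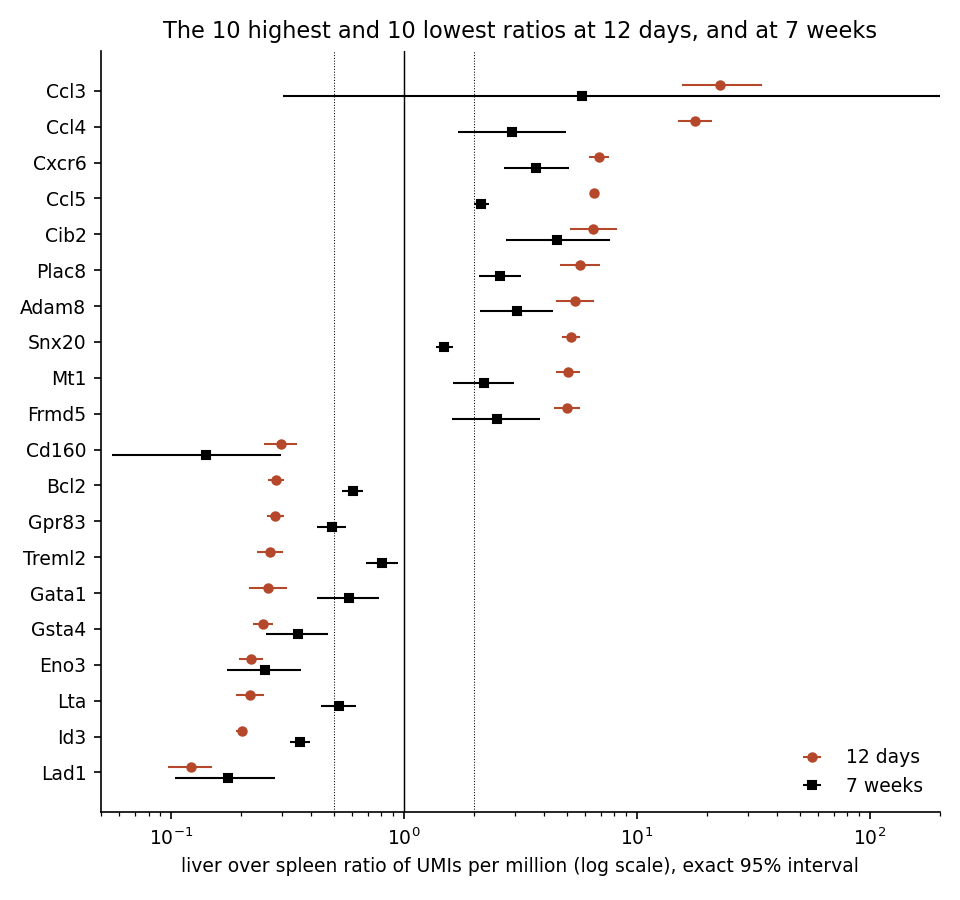
Ratio of liver over spleen in UMIs per 1000000 (x axis, log scale) at 12 days (red circles) and at 7 weeks (black squares) for the 10 genes with the highest and the 10 with the lowest ratio at 12 days, with exact 95% intervals of counting error. The interval of Ccl3 at 7 weeks runs past the axis. All 20 ratios lie on the same side of 1 at both ages, though Ccl3 at 7 weeks stood at only 0.435 against 0.0746 CPM. Most lie nearer to 1 at 7 weeks. The genes were picked for extreme 12-day ratios, so no change with age can be read from this.

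The level behind the ratio differed between genes. The 107 higher genes were chosen by a 2-fold ratio of neonatal liver over neonatal spleen, so each group below meets that comparison by choice. The share of all genes with such patterns is not given here, so the sizes of the groups have no background to be read against. Of the 107 higher genes, 37 exceeded each of the other 3 libraries by 2-fold or more in neonatal liver, among them Ccl5, Gzmb, Cxcr6, Il10, Nkg7, Klrg1, Tigit, Tbx21 and Epcam: Gzmb stood at 912 CPM in neonatal liver and 184 in neonatal spleen, with 71.3 and 22.4 in liver and spleen at 7 weeks. In neonatal spleen 17 fell short of each other library by 2-fold or more. Snx20 (145 and 27.7 CPM in liver and spleen at 12 days, 199.8 and 134 at 7 weeks), Ly6a (827, 218, 922 and 526 CPM in the same order), Mcl1 (128, 56.5, 121 and 129), Dapk3 (71.4, 14.5, 49.6 and 40.9) and Tmed7 (33.2, 7.42, 44.6 and 32.1) were of this kind. For these genes a batch of the neonatal spleen library cannot be told apart from its tissue and age. The same holds for the 37 genes and the neonatal liver library. The 3 groups of 37, 17 and 10 overlapped in part, the 10 being at least 2-fold higher in both livers than in both spleens (Plac8, Adam8, Cib2, Ccr3, Ccr2, Prdm1, Gadd45b, Egln3, Glrx and Rnf125), and 46 fell in none.

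The lower genes divided in the same way. They too were chosen by the ratio of the neonatal libraries, so their groups meet that comparison by choice, again without a share over all genes. For lower genes set apart by a single library, its batch likewise cannot be told apart from its tissue and age. At least 2-fold lower in neonatal liver than in each other library were 13 of the 47, among them Bcl2 (40.0 CPM, against 141 in neonatal spleen and 95.9 and 159 in liver and spleen at 7 weeks), Lta (12.7 against 58.5, 32.8 and 62.6), Treml2, Ifngr2, Tnf, Tcf7 and Ly6c1. At least 2-fold higher in both spleens than in both livers were 8, among them Lad1 (4.74 and 4.13 CPM in the livers, 39.1 and 23.6 in the spleens), Id3, Gpr83, Tespa1 and Tnfsf11. In neonatal spleen 9 exceeded each other library by 2-fold or more, with Cd160, Gsta4, Eno3, Capn3, Ckb and Itm2a beside 3 haemoglobin genes. Hbb-bt and Hbb-bs belong to both of the last groups, and 19 genes fell in none. With the floor of 25 CPM at both ages, Lag3 was the 1 gene past 2-fold in opposite directions. It stood at 125 against 50.2 CPM at 12 days and 37.6 against 87.4 at 7 weeks. Slamf7, below that floor at 7 weeks, stood at 26.4 against 9.99 CPM at 12 days and 2.83 against 7.53 at 7 weeks.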

How the data were processed

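The 4 single-cell RNA libraries (liver and spleen, 12 days and 7 weeks) come from the Single Cell 5' chemistry of 10x Genomics, per the labels' protocols. The authors deposited raw UMI counts for all genes in all barcodes. Per the file headers they come from Cell Ranger 4.0.0, and the genome was mm10 per the submitters' processing notes, which also name Seurat 4.0.2. No source used here gives the annotation release. Of 32285 features, 32158 matched GENCODE vM21 (GRCm38), used for positions and exon overlaps. Doublets were not called; a setting without the deepest cells is given with the alternatives.

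Cells were chosen by the rule in the first paragraph of the results, their counts were summed per library and scaled to 1000000 (CPM), and liver was divided by spleen. With 1 library per group no test was made: intervals are exact (Poisson, conditional binomial, Clopper-Pearson), at 95%, and cover counting error only. The ratio code was tested on simulated data. For shares of cells, each cell was thinned to 2000 UMIs (seed 7), which left out 327 liver and 315 spleen cells. Named genes are the 10 highest and 10 lowest ratios (25 CPM and 100 UMIs or more in at least 1 library, excluding haemoglobin, ribosomal and mitochondrial genes, antigen receptor segments, Xist and Y genes, and clone names), up to 4 members of each of 21 lists with the largest log2 ratio at 10 CPM or more, and the genes of the rule. Genes named beyond these were chosen after their values were seen, as was the reading of Gata1 by erythroid RNA. Some genes, and a planned split of the cells that used one of them, are not reported here. The cells, lists and tests were chosen with earlier results of these data known. Promoter windows are from RefSeq (GRCm38.p6). Python 3.11.15, numpy 2.4.6, scipy 1.17.1, pandas 2.3.3, and edgeR 4.0.16 (R 4.3.3; TMM factors only) were used.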

Additional observations from a re-analysis of the deposited data

Results flagged for a closer look

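Among the genes that the naming rule chose, 2 past 2-fold at 12 days had a 7-week ratio whose counting interval lay wholly on the other side of 1. Epcam, an adhesion gene, was 3.24-fold higher in liver at 12 days (142 against 44.0 CPM), and its ratio at 7 weeks was 0.628 (22 against 35 CPM). Nkg7, a granule membrane gene, was 4.33-fold higher in liver at 12 days (551 against 127 CPM), and its ratio at 7 weeks was 0.709 (43.9 against 62.0 CPM). Lag3, named after its values were seen, went from 2.49 to 0.430, while Mcl1 (2.26 and 0.937) and Tcf7 (0.490 and 1.02) crossed 1 with a 7-week interval that held 1. Each age and tissue has 1 library, and the difference between the ages was not tested.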

How the results depend on the processing

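Under 13 other choices of cells, depth and scaling, genes at least 2-fold higher in liver numbered 100 to 122 and lower genes 41 to 53, against 107 and 47, except that totals without ribosomal, mitochondrial, receptor and haemoglobin genes, which shift the median of all genes to -0.06, gave 74 lower. The genes themselves changed too. Of the 107, the fewest that stayed were 86, with no limit on mitosis UMIs, and 94 stayed with those reduced totals. Of the 47, the fewest were 38, in thinned cells and with no Foxp3 UMI needed. A floor of 10 CPM gave 190 and 93, of 50 CPM 63 and 30, and none 2495 and 2061; a 1.5-fold limit gave 290 and 150 and a 3-fold limit 40 and 16. The Treg identity median was -0.00582 with no limit on mitosis UMIs (0.06 otherwise), and that of the 3 mitosis genes -0.0807 with fewer than 3 such UMIs (0.29 otherwise); the cause was not tested. The small medians of the cytokine receptor, TCR and NF-kB, iron and S phase lists crossed 0 in at least 1 choice each. All 64 named genes past 2-fold kept their direction in each of those choices, except that Ccl3 had no value without the 10 highest cells; Ccnb2, Birc5, Tnfaip3 and Gbp5 fell short of 2-fold in at least 1. The Ccl4 log2 ratio (4.15) was 4.81 with fewer than 3 mitosis UMIs and 5.06 without cells of 8 or more S phase UMIs, that of Ifng (2.57) was 3.18 in thinned cells, and that of Mt2 (2.30) was 3.11 without the 10 highest cells. No paired analysis was possible because each group has 1 library. Depth limits the ratios of low genes: the floor applies to the higher library alone, and Cebpb rests on 14 spleen UMIs.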

Other observations

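Genes outside the lists, chosen after their values were seen, add to the account. Ltb4r1, the receptor of the leukotriene B4 chemoattractant, stood at 96.0 CPM in neonatal liver and 24.5 in spleen (3.92-fold higher), and was also higher in liver at 7 weeks (23.7 against 4.25 CPM). Irf8, an interferon regulatory factor gene, stood at 141 against 40.9 CPM (3.45-fold) and the Src family kinase gene Lyn at 31.6 against 9.86 (3.21-fold). The small GTPase genes Arf6 and Rac1 stood at 265 against 90.4 CPM and at 205 against 86.4; Rac1 stood at 426 against 372 CPM at 7 weeks. Glrx, a glutaredoxin gene, stood at 438 against 155 CPM at 12 days and 330 against 141 at 7 weeks.

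Cd200r1 stood at 60.8 against 30.1 CPM, while its ligand gene Cd200, a member of the inhibitory list, stood at 27.1 against 54.8. Pvrig, an inhibitory receptor gene of the nectin family of ligands, stood at 27.1 against 7.37 CPM (3.68-fold higher), and Cd96, which binds related ligands, at 33.3 against 81.4. Itm2a stood at 64.6 against 164 CPM and Tespa1, a gene of T cell receptor signalling, at 59.0 against 133, and both were also lower in liver at 7 weeks (45.7 against 78.3 and 65.7 against 143 CPM).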
